A study of Mus musculus with 4 samples.

Results

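Hmga1 and Hmga2 were examined in H3K4me3 HiChIP data as 2 of 21755 protein-coding genes. They were chosen by name, and each was placed by the transcription start site (TSS) that the GENCODE annotation of mm10 gives for the gene. Pair ends were counted by 1-kb bin within 20 kb of the TSS, long-range contacts were counted as pairs with an end within 10 kb of it, and partners of these contacts were counted by 10-kb bin. HiChIP ligates pieces of DNA that lie close together in the nucleus, cut here with MboI at its sites GATC, and then precipitates a chromatin mark. A sequenced pair therefore reports a contact, and pair ends are enriched where the mark is. H3K4me3 is a mark of active and CpG-rich promoters.

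The cells were MLg, an established mouse lung fibroblast line (ATCC CCL-206), and all groups shared this line. There was 1 library for each of 4 conditions. Control, which the labels call WT, had no TGFB1. TGFB1 received human recombinant TGFB1 at 5 ng/ml for 4 h, starting 20 h after transfection. TGFB1+miR-9-LOF received in addition an antagomiR against miR-9-5p at 60 nM, an oligonucleotide that blocks the miRNA, and is also called the library with both agents. The miR-9-LOF library received the antagomiR alone. Cells were harvested after 24 h. By the account of the study, cells without the antagomiR against miR-9 were transfected with a control antagomiR, which the labels of the Control and TGFB1 libraries do not name. With 1 library per condition, every test below compares 2 libraries and not the conditions, and every interval covers counting error only. Any difference between libraries that is technical cannot be told apart from one due to the treatment.

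HMGA proteins are small architectural chromatin proteins that bind AT-rich DNA in its minor groove through AT-hook motifs and bend it, which helps other factors to assemble. Hmga1 and Hmga2 are both high in embryonic and proliferating cells. Hmga2 is induced by TGFB signalling through Smad proteins in epithelial cells undergoing mesenchymal transition, and its mRNA is a known target of let-7 miRNAs.

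The DNA just upstream of the TSS is shown for both genes, since the mark was measured around it, with each CpG dinucleotide in capitals. The Hmga1 stretch is chr17:27556324-27556496 on the plus strand and the Hmga2 stretch is chr10:120476470-120476719 on the minus strand, both in GRCm38 (mm10) as RefSeq gives them, written 5′ to 3′ in the direction of transcription and ending at the base before the TSS. The Hmga1 stretch lies within Gm49774, an antisense noncoding gene, and the Hmga2 stretch lies in no annotated gene.
Hmga1 promoter: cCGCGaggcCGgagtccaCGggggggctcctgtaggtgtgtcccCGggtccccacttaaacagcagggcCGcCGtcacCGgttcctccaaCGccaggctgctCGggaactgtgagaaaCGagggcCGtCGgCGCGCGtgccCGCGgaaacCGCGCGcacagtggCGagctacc
Hmga2 promoter: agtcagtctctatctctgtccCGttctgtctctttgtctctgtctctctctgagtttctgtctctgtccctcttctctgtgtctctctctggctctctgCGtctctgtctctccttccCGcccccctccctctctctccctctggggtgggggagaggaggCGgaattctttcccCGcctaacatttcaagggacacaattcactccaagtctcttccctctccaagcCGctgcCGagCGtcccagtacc

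The printed Hmga1 stretch of 173 bases held 22 CpG and the Hmga2 stretch of 250 bases held 8. The full 250 bases before the first RefSeq start of Hmga1, which lies 77 bp downstream of the GENCODE start, held 34 CpG, and 96.5% of the 32851 promoters in the RefSeq table held fewer. For Hmga2 the number was 8, and the median was 6. The Hmga2 stretch instead was rich in pyrimidines, with C or T at 70.8% of its bases on the strand shown, and 99.6% of the promoters had a lower share (median 50%). The GC box GGGCGG or its reverse complement CCGCCC occurred 3 times in the 250 bases of Hmga1 and 1 time in those of Hmga2, and 32.7% of the promoters held at least 1. The printed Hmga1 stretch held neither form, so its 3 matches reach into the 77 bases past the GENCODE start. Neither window held CCAAT (either strand, in 33.8% of promoters) or TATAAA (either strand, in 12.4%). The miRNA that the antagomiR targets is shown with its seed, bases 2 to 8, in capitals. It is encoded by Mir9-1 (chr3:88215613-88215635), Mir9-2 (chr13:83738821-83738843) and Mir9-3 (chr7:79505279-79505301), all on the plus strand of GRCm38, and the mature sequence is the same for these genes in RefSeq.
mmu-miR-9-5p: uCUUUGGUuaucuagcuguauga

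The letters ACCAAAG, which pair with this seed, or their reverse complement CTTTGGT were in neither 250-base window and in 3.49% of all promoters. This says only that the letters are not in these windows.

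The libraries held 15359978 valid pairs in Control, 10864558 with TGFB1, 14121095 with both agents and 15568047 with the antagomiR alone, of which 4793354 to 6692306 joined places 20 kb to 2 Mb apart on 1 chromosome. The share of pair ends in enriched 1-kb bins, called on the 4 libraries at equal depth, fell from 9.62% in Control to 6.93%, 4.06% and 4.70% in the same order. A coding promoter is called marked here when an enriched bin lay within 2 kb of its TSS, which held for 8214 promoters. The median marked promoter likewise had fewer pairs, relative to the library total, in each of the treated libraries than in Control, and ratios between libraries are therefore given relative to it. Among markers of cell types, 4 of 10 fibroblast genes were marked (Col1a1, Pdgfra, Pdgfrb and Vim), near the 37.8% of all coding promoters. Of the other markers 0 of 6 epithelial, 0 of 4 endothelial and 0 of 4 immune genes were marked. The fibroblast markers that were not marked were Col1a2, Col3a1, Thy1, Fn1, Tcf21 and Tbx4.

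Hmga1 lies at chr17:27556497-27563674 on the plus strand and is 7.18 kb long. Hmga2 lies at chr10:120361275-120476469 on the minus strand and is 115 kb long. Both promoters were marked. The mark at the TSS was counted as valid pairs with at least 1 end within 2 kb of it. Hmga1 had 631 such pairs in Control, 341 with TGFB1, 262 with both agents and 325 with the antagomiR alone. Relative to the median of all coding promoters in the same library this was 6.25-fold (95% Poisson interval 5.77 to 6.75), 5.09-fold (4.56 to 5.66), 3.32-fold (2.93 to 3.74) and 3.74-fold (3.34 to 4.16). Hmga2 had 998, 454, 366 and 464 pairs in the same order of libraries. These were 9.88-fold (9.28 to 10.5), 6.78-fold (6.17 to 7.43), 4.63-fold (4.17 to 5.13) and 5.33-fold (4.86 to 5.84) the median coding promoter. In each library the mark of Hmga2 was above that of Hmga1 and the intervals of the 2 genes did not overlap.

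For both genes Control was highest and TGFB1 second, and the intervals of both libraries with antagomiR overlapped. This was the order of the share of ends in enriched bins over the whole libraries. Among the 8214 marked promoters, 93.9% to 96.5% had fewer pairs than Hmga2 and 78.7% to 83.0% had fewer than Hmga1, depending on the library. The genes also differed in the number of MboI sites, where pair ends arise. Within 2 kb of its TSS Hmga1 had 5 sites, and 4.45% of coding promoters had fewer, while Hmga2 had 11 against a median of 9. The part of the sites in the difference between the genes was not tested. The near-to-flank ratio sets the ends per kb within 2 kb of the TSS against those 10 to 20 kb away. It was 10.7, 7.49, 4.99 and 6.46 for Hmga2 and 6.29, 4.76, 2.99 and 3.66 for Hmga1, with medians over all coding promoters of 1.48 to 1.71. The medians over marked promoters were 5.76, 4.34, 2.84 and 3.30. Of the marked promoters 54.0% to 58.2% had a lower ratio than Hmga1, and 84.1% to 92.6% a lower one than Hmga2. Few of the pairs had an end of doubtful position. A mapping quality below 30 was found at 4.85% to 6.47% of the pairs of Hmga2 and 4.99% to 7.69% of those of Hmga1, against 9.24% to 13.4% in the libraries as a whole.

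**Figure D1:**
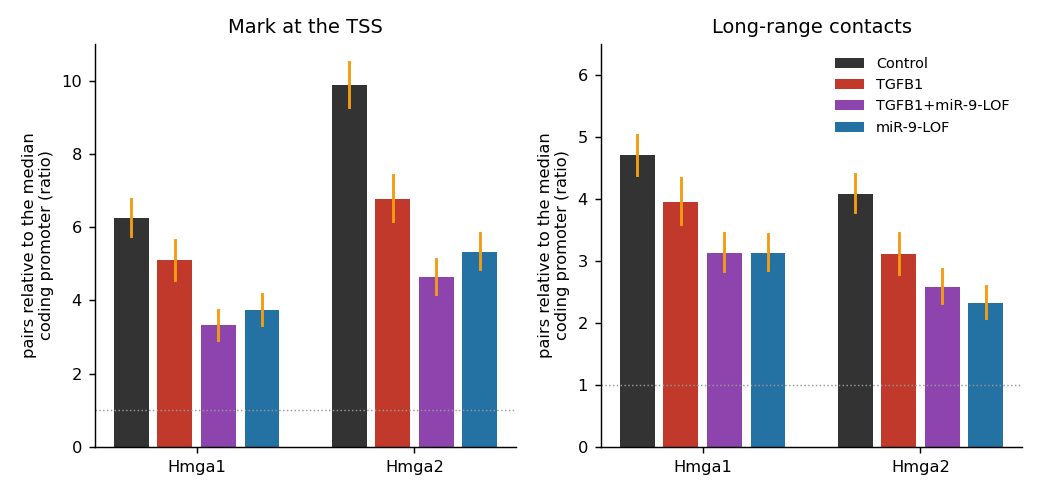
Pairs at Hmga1 and Hmga2 in each of the 4 libraries as a ratio to the median coding promoter of that library (dotted line at 1), for the mark within 2 kb of the TSS on the left and for contacts of 20 kb to 2 Mb on the right. Bars are single libraries and orange lines are 95% Poisson intervals of the count; the mark of Hmga2 is above that of Hmga1 in each library, and the contacts of Hmga1 are above those of Hmga2.

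Pair ends around the 2 start sites were counted by 1-kb bin. At Hmga1 Control had 370 ends in the first kb of the gene and 260 in the next, with 2 MboI sites in each. The kb before the TSS held 0 sites and 0 ends in each library, so these data say nothing of the mark there, and the bin from 2 to 1 kb upstream, with 1 site, had 13 ends in Control. A second peak lay 8 to 10 kb downstream, with 379 and 608 ends in Control in its 2 bins. These bins hold 3 and 7 sites, so that the ends per site were 126 and 86.9, below the 185 and 130 of the 2 bins at the TSS. The TSS of AI413582, an uncharacterized coding gene on the opposite strand, lies 9.26 kb from that of Hmga1, and its own mark was 9.39-fold the median coding promoter in Control. It was 7.82-fold with TGFB1, 4.65-fold with both agents and 5.55-fold with the antagomiR alone. This TSS falls inside the 10-kb window used for the contacts of Hmga1, so contacts of the 2 promoters cannot be told apart there.

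At Hmga2 ends were seen on both sides of the TSS. Control had 165 and 330 ends in the 2 bins upstream, with 3 sites each, and 577 in the bin from 1 to 2 kb downstream, with 5 sites. Per site these were 55.0, 110 and 115 ends. The bin between them, the first kb of the gene, had 6 ends in Control and 9 over the 4 libraries, and it held 0 MboI sites. Ends were missing in the same way elsewhere. Of the 40 bins around each TSS, 4 had no site at Hmga1 and 7 at Hmga2, and these held 0 and 13 ends over the 4 libraries. The bins with a site held 7659 ends at Hmga1 and 5375 at Hmga2, and 1 of the 36 such bins at Hmga1 and 0 of the 33 at Hmga2 were without ends. The bin from 1 to 2 kb downstream of Hmga2 stood above the mean of the bins 10 to 20 kb away by 22.9-fold in Control, 15.5-fold with TGFB1, 10.2-fold with both agents and 11.8-fold with the antagomiR alone. With no site in the first kb of Hmga2, these data say nothing of the mark there.

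**Figure D2:**
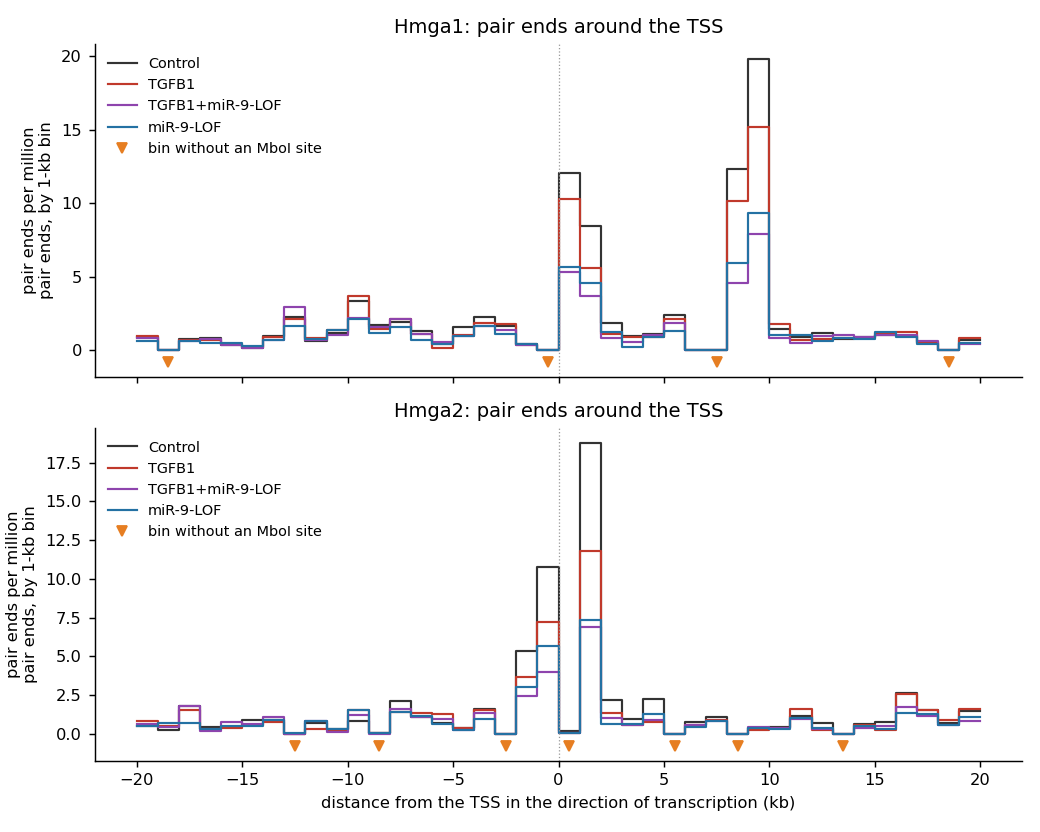
Pair ends, scaled to the pair ends of the library, in each 1-kb bin within 20 kb of the TSS of Hmga1 (top) and Hmga2 (bottom), with 1 line per library and triangles under bins that hold no MboI site. Hmga1 has 2 peaks, the second at 8 to 10 kb, and Hmga2 has ends on both sides of the TSS with a gap in the first kb, where no site lies.

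Long-range contacts were counted as pairs 20 kb to 2 Mb apart with an end within 10 kb of the TSS. Hmga1 had 804 in Control, 455 with TGFB1, 407 with both agents and 448 with the antagomiR alone. These were 4.70-fold (4.38 to 5.04), 3.96-fold (3.60 to 4.34), 3.13-fold (2.83 to 3.45) and 3.13-fold (2.85 to 3.44) the median coding promoter. Hmga2 had 698, 357, 336 and 333 contacts. These were 4.08-fold (3.78 to 4.40), 3.10-fold (2.79 to 3.44), 2.58-fold (2.32 to 2.88) and 2.33-fold (2.09 to 2.59) the median. Control was highest and TGFB1 second for both genes, and the intervals of the 2 libraries with antagomiR overlapped. Hmga1 was above Hmga2 in each library, with intervals that were apart in TGFB1 and miR-9-LOF and overlapped in Control and TGFB1+miR-9-LOF. The order of the genes was thus the opposite of that of the mark. The contact window of Hmga1 also holds the TSS of AI413582. In Control the region within 2 Mb, outside enriched bins, had 2.36 times the ends per kb of the genome at Hmga1. At Hmga2 it had 1.34 times. The contacts were not scaled to this, and the part of either in the order of the genes was not tested.

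The question of the design is how TGFB1 and the loss of miR-9 move the mark and the contacts of promoters. Each ratio of 2 libraries was compared with the median marked promoter by a two-sided exact binomial test, adjusted over all coding promoters with at least 10 pairs. A promoter is called at an adjusted p below 0.05. The contrasts share libraries (Control in 2 of them, TGFB1 in 2), so they are not independent of each other. The median over all tested promoters lay above that of the marked ones, by 0.19, 0.34 and 0.50 on the log2 scale for the mark and by 0.15, 0.19 and 0.32 for contacts in the order of contrasts below, and the values here are relative to the marked ones.

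In TGFB1 over Control, neither gene was called. The mark ratio of Hmga1 differed from that of the median marked promoter by 0.07 (95% interval -0.13 to 0.26, exact binomial adjusted p = 0.744). The mark ratio of Hmga2 differed from it by -0.18 (-0.34 to -0.02, exact binomial adjusted p = 0.159 and unadjusted exact p = 0.029). In this contrast 6.63% of all promoters tested were called. Contacts differed by -0.05 for Hmga1 (-0.22 to 0.12, exact binomial adjusted p = 0.828) and by -0.19 for Hmga2 (-0.38 to -0.01, adjusted p = 0.205 and unadjusted exact p = 0.0407), with 5.22% of promoters called. The ratio of Hmga2 was thus below that of the median marked promoter in both measures before adjustment, and past no threshold after it. With a window of 5 kb the mark of Hmga2 was called at -0.26 (exact binomial adjusted p = 0.00779). Relative to the median of all coding promoters its mark was called at -0.37 (adjusted p = 0.000635) and its contacts at -0.34 (adjusted p = 0.0165), by the exact binomial test, and with library totals alone all 4 values, from -0.64 to -0.34, were called in this contrast.

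For TGFB1+miR-9-LOF over TGFB1, neither gene was called. The mark differed by -0.11 for Hmga1 (-0.35 to 0.12, exact binomial adjusted p = 0.552) and by -0.04 for Hmga2 (-0.25 to 0.16, adjusted p = 0.835), where 20.6% of promoters were called. Contacts differed by -0.12 for Hmga1 (-0.32 to 0.07, exact binomial adjusted p = 0.456) and by -0.05 for Hmga2 (-0.27 to 0.17, adjusted p = 0.849), where 8.58% were called. No interval of these 4 values left out 0. The reference decides this. Relative to the median of all coding promoters the marks of Hmga1 and Hmga2 were called, at -0.45 and -0.38 (exact binomial adjusted p = 0.00231 and 0.00264), as were contacts of Hmga1 at -0.31 (adjusted p = 0.0312). With library totals alone each of the 4 values was called, between -0.76 and -0.40. Relative to all coding promoters 3394 of 21048 promoters were called lower for the mark and 1237 of 21137 for contacts. With library totals alone these were 7734 and 3994.

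In miR-9-LOF over Control, the contact ratios of both genes were lower than that of the median marked promoter. Contacts of Hmga2 fell by 0.49 on the log2 scale (interval -0.68 to -0.30, exact binomial adjusted p = 8.11e-06), to 0.712 of the level that the median ratio gives, and 0.645% of the marked promoters had a lower ratio. Contacts of Hmga1 fell by 0.27 (-0.44 to -0.10, exact binomial adjusted p = 0.00645), with 9.98% of marked promoters lower. In this contrast 45.6% of all promoters were called in either direction, 4.09% as lower, and 9.28% of the marked promoters as lower. For Hmga2 the pairs on the upstream side went from 531 in Control to 260 in miR-9-LOF. On the downstream side the other 167 and 73 pairs lay. The mark of Hmga2 was called lower too, at -0.23 (-0.39 to -0.07, exact binomial adjusted p = 0.0116), and that of Hmga1 was not, at -0.08 (-0.28 to 0.11, adjusted p = 0.512). Of all promoters 50.1% were called for the mark in either direction and 4.23% as lower, and of the marked promoters 10.6% as lower.

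The contact ratio of Hmga2 remained called under each of the 10 alternatives tried, between -1.05 and -0.36. The value of -0.36 (exact binomial adjusted p = 0.00249) came from comparing promoters with others of the same level. The other 2 calls, contacts of Hmga1 and the mark of Hmga2, were lost under some alternatives. The contact ratio of Hmga1 was -0.15 (exact binomial adjusted p = 0.401) with a window of 5 kb, which leaves out the TSS of AI413582, and -0.10 (adjusted p = 0.414) when promoters were compared with others of the same level. The mark ratio of Hmga2 was 0.015 (exact binomial adjusted p = 0.982) with a window of 1 kb, -0.18 (adjusted p = 0.0716) at a mapping quality of at least 30 and -0.14 (adjusted p = 0.209) at the same level. The mark of Hmga1, not called relative to the marked promoters, was called at -0.58 (exact binomial adjusted p = 2.61e-08) relative to all coding promoters and at -0.98 (adjusted p = 3.79e-23) with library totals alone. Of all 21050 promoters tested, 7035 were called lower in the mark with the first of these references and 9759 with the second.

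**Figure D3:**
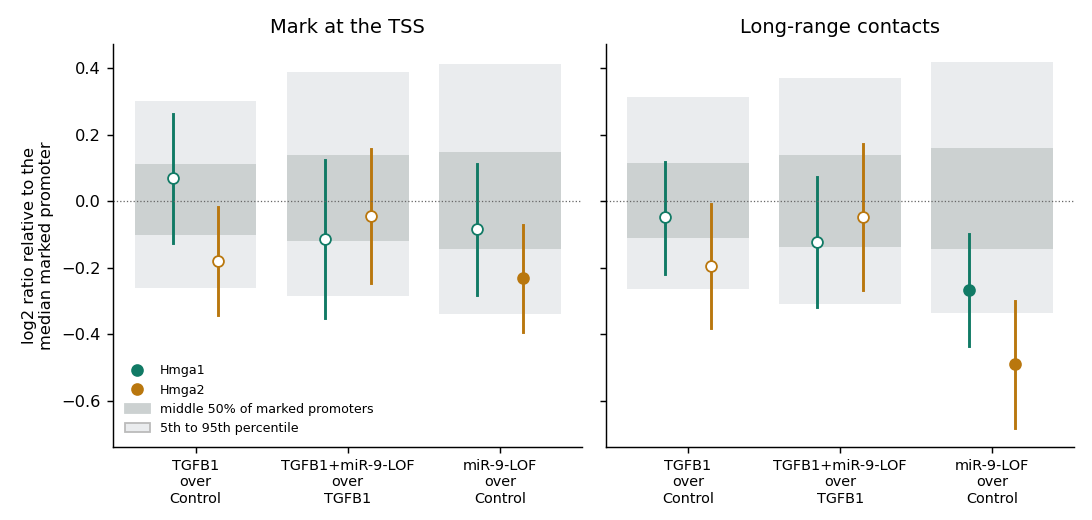
log2 ratio of the mark (left) and of contacts (right) between 2 libraries, relative to the median marked promoter, for Hmga1 and Hmga2, with 95% Clopper-Pearson intervals; filled points were called and open ones were not. Grey boxes give the middle 50% and the 5th to 95th percentile of the 8214 marked promoters, and the contacts of Hmga2 in miR-9-LOF over Control, at -0.49, lie below the outer box.

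Since TGFB1 was given with and without the antagomiR, its effect was compared between the 2 settings. For contacts of Hmga2 the log2 ratio of TGFB1 to no TGFB1, relative to that of the median marked promoter, was -0.19 without the antagomiR and 0.24 with it. The difference between the settings was taken for each promoter and set against the median of these differences over the marked promoters, which need not equal the difference of the 2 medians. The value of 0.45 had a 95% Poisson interval of 0.16 to 0.73, and 7.48% of the marked promoters had an interval that left out 0. It rests on the same counts as the contrasts above and is not separate from the lower ratio in miR-9-LOF over Control. For the other 3 values the interval held 0. These were contacts of Hmga1 at 0.15 (-0.11 to 0.40), the mark of Hmga2 at 0.18 (-0.08 to 0.43) and the mark of Hmga1 at -0.04 (-0.34 to 0.26), where 9.65% of the marked promoters had a mark interval outside 0.

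The contacts of Hmga2 had a distribution unlike that of Hmga1. Over the 4 libraries, 66.3% of the 1724 contacts of Hmga2 reached 100 to 500 kb (95% Wilson interval 64.0% to 68.5%), against a median of 41.9% over coding promoters. A share of 6.73% (5.64% to 8.01%) reached beyond 500 kb, against a median of 19.3%. Of the contacts 78.9% (76.9% to 80.7%) lay upstream, and 99.3% of the marked promoters had a lower share. In the single libraries this share was 76.1% in Control, 84.6% with TGFB1, 79.5% with both agents and 78.1% with the antagomiR alone, so the upstream side led in each. The 95% Wilson intervals of Control (72.8% to 79.1%) and TGFB1 (80.5% to 88.0%) did not overlap, and this difference was not tested. Hmga1, with 2114 contacts, had 39.5% at 100 to 500 kb, 25.3% beyond 500 kb and 53.1% upstream. Its shares lay nearer to the medians than those of Hmga2.

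The far ends of Hmga2 contacts seldom lay in H3K4me3-enriched bins. Over the 4 libraries 1.45% (95% Wilson interval 0.984% to 2.13%) did so, against 8.70% (7.58% to 9.98%) for Hmga1 and a median of 6.66% over coding promoters. In the libraries the counts for Hmga2 were 17 of 698, 2 of 357, 0 of 336 and 6 of 333. Few coding genes lie near. Hmga2 had 5 coding TSS within 500 kb and Hmga1 had 16, which was the median over coding promoters.

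Partners were sought in 10-kb bins from 30 kb to just under 2 Mb on either side. The pairs of the 4 libraries were summed and set against the number expected from the distance and from the coverage of the bin in each library, with a one-sided exact Poisson test adjusted over the bins of all coding promoters. Of these bins 0.423% were called. Hmga2 had 16 called of 390 bins and Hmga1 had 9 of 390, where the median coding promoter had 1 and the median marked promoter 2. Of the marked promoters, 99.4% had fewer called bins than Hmga2 and 96.1% fewer than Hmga1, and promoters with more pairs have more power here.

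The 16 called partners of Hmga2 all lay upstream, from the bin at -98.5 kb to that at -409 kb (centre of the bin, negative upstream). None held an enriched bin or a coding TSS, and 0 of the 8 bins inside the Hmga2 gene were called. They lay between Hmga2 and the TSS of Msrb3, a methionine sulfoxide reductase, which is 423 kb upstream. The bin with the most pairs was chr10:120620001-120630000, at -149 kb, with 99 pairs where 32.3 were expected (exact Poisson test, adjusted p = 7.29e-17). The libraries contributed 41 pairs where 13.5 were expected in Control, 24 against 6.94 with TGFB1, 16 against 6.93 with both agents and 18 against 4.94 with the antagomiR alone. Each library was above its expected number there. The bin was picked and called on the sum of these libraries, so this is no separate support for it.

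Inside the Msrb3 gene lay 3 partners of Hmga2, and chr10:120880001-120890000 among them had the highest ratio of the 16, with 17 pairs against 4.33 expected (exact Poisson test, adjusted p = 0.00186). By library these were 7, 4, 3 and 3 pairs. The bin chr10:120730001-120740000 had 20 pairs against 6.401, chr10:120860001-120870000 had 19 against 6.84, and chr10:120630001-120640000, next to the bin with the most pairs, had 52 against 18.7. Of the called bins 6 overlapped 4930471E19Rik, a long noncoding RNA gene of the stretch between Hmga2 and Msrb3. Among these, chr10:120640001-120650000 with 49 pairs against 23.5, held an element that RefSeq lists as an enhancer from the VISTA collection, which tests DNA for enhancer activity in mouse embryos (mm1003, chr10:120646043-120649455). RefSeq lists an enhancer in 2 of the 390 bins of Hmga2, and 1 of these bins was called. For Hmga1 it lists one in 5 bins, none called.

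Taken by stretches, the pairs of Hmga2 were above expectation upstream and below it downstream. Between the start of the gene and the near end of Msrb3 there were 1048 pairs in 27 bins against 589 expected, a ratio of 1.78. In the 12 bins over Msrb3 the ratio was 1.76, and in the 156 bins past the Msrb3 TSS it was 0.487. Inside the Hmga2 gene it was 0.660, with 126 pairs in 8 bins, and in the 187 bins downstream of the gene it was 0.360. The ratio between Hmga2 and Msrb3 was 1.69 in Control, 1.81 with TGFB1, 1.84 with both agents and 1.88 with the antagomiR alone, and downstream of the gene it was 0.406, 0.249, 0.336 and 0.403. The stretches were set after the pairs were seen and are a description. The expected number was set so that it summed to the observed one for each promoter and library, so that a high ratio in one stretch lowers the others.

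**Figure D4:**
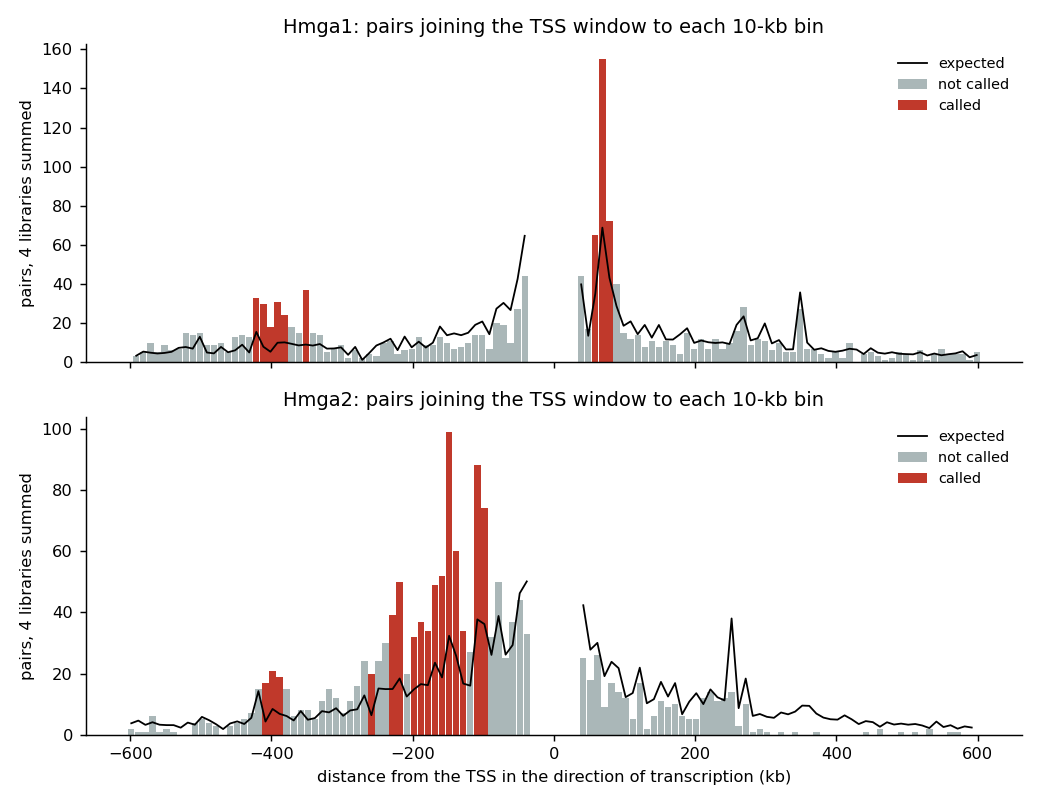
Pairs of the 4 libraries that join the TSS window to each 10-kb bin within 600 kb, against the distance from the TSS in kb (negative upstream), for Hmga1 (top) and Hmga2 (bottom). Bars are red where called, and the line is the number expected; Hmga2 has 16 called bins, all upstream, and Hmga1 has 6 upstream and 3 downstream.

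The 9 called partners of Hmga1 lay in 2 groups. Downstream, 3 bins in a row covered the start of Nudt3, a hydrolase of inositol pyrophosphates, and of Rps10, a ribosomal protein, together with the read-through gene RPS10-NUDT3. The bin chr17:27620001-27630000, which holds the Nudt3 TSS and an enriched bin, had 155 pairs against 68.8 expected (exact Poisson test, adjusted p = 4.39e-15). The libraries gave 74 pairs against 31.6 in Control, 33 against 15.3 with TGFB1, 24 against 8.91 with both agents and 24 against 13.0 with the antagomiR alone. Each library was above its expected number, which is no separate support, since the bin was called on their sum. The Nudt3 promoter itself was marked, at 5.33-fold the median coding promoter in Control and 2.66-fold to 4.31-fold in the other libraries.

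Upstream, 6 bins between -421 and -351 kb lay at Uqcc2, an assembly factor of respiratory complex III, at Ip6k3, an inositol hexakisphosphate kinase, and at Lemd2, a protein of the inner nuclear membrane. The bin chr17:27200001-27210000, with the Lemd2 TSS, had the highest ratio, 37 pairs against 9.02 expected (exact Poisson test, adjusted p = 9.16e-09). By library these were 15, 8, 10 and 4 pairs against 3.17, 2.14, 1.91 and 1.80. The ratio in miR-9-LOF, 2.22, had a Poisson interval of 0.605 to 5.68 and was the one that did not stand clear of 1. The bin chr17:27140001-27150000 had 30 pairs against 7.91, and chr17:27160001-27170000, with the Ip6k3 TSS, had 31 against 9.95. On either side of the latter, chr17:27150001-27160000 had 18 against 5.35 and chr17:27170001-27180000 had 24 against 10.1. Of the 6 bins, 1 held an H3K4me3-enriched bin, that of Uqcc2, and the Lemd2 promoter was not marked. Tested bins between this group and Hmga1 were not called. Grm4, a glutamate receptor gene whose promoter was not marked, has its TSS 35.1 kb upstream. The bin of that TSS reaches nearer than 30 kb and was not tested.

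Called partners were found in the 4 libraries together. The ratio of observed to expected pairs over the 16 bins of Hmga2 was 2.38 (95% Poisson interval 2.12 to 2.67) in Control, 2.52 (2.14 to 2.93) in TGFB1, 2.43 (2.04 to 2.87) in TGFB1+miR-9-LOF and 2.45 (2.05 to 2.92) in miR-9-LOF. Over the 9 bins of Hmga1 it was 2.25 (1.95 to 2.60), 2.20 (1.79 to 2.67), 2.45 (1.95 to 3.03) and 2.23 (1.80 to 2.74). The intervals overlapped for each pair of libraries. These bins held 44.8%, 48.7%, 43.9% and 40% of the partner pairs of Hmga2 and 26.9%, 23.9%, 22.5% and 22.4% of those of Hmga1. The bins were chosen on the sum of the same libraries, and no difference between libraries in these ratios was detectable at this depth. The expected pairs were set to the total of each promoter in each library, so the ratios cannot show a change in the number of contacts. The pairs themselves numbered 296, 163, 138 and 128 in the bins of Hmga2, not scaled to library totals. In the bins of Hmga1 they numbered 191, 99, 83 and 92.

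**Figure D5:**
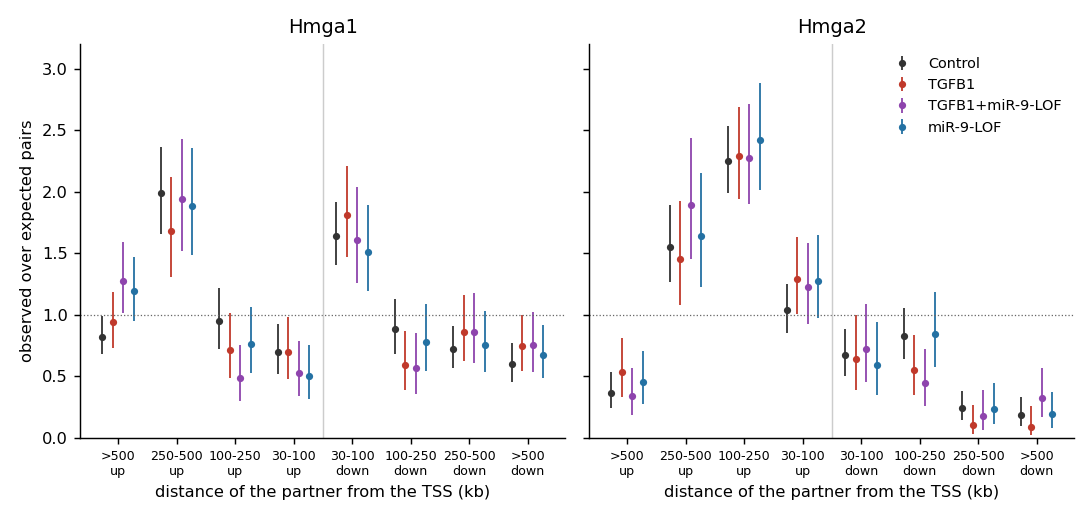
Observed over expected pairs in stretches of distance upstream (left of the grey line in each panel) and downstream of Hmga1 and Hmga2, with 1 point per library and 95% Poisson intervals. For Hmga2 the stretch 100 to 250 kb upstream lies between 2.25 and 2.42 in the 4 libraries and the stretches beyond 250 kb downstream lie below 0.4; for Hmga1 the stretches above 1.5 in each library are 250 to 500 kb upstream and 30 to 100 kb downstream.

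The promoters around the 2 genes differed in their mark. The genes next to Hmga2 on the downstream side are Llph, whose TSS lies 249 kb away, and Irak3, an inhibitor of Toll-like receptor signalling, at 274 kb. Llph was marked at 10.2-fold, 8.04-fold, 4.75-fold and 5.80-fold the median coding promoter in the order of libraries, and Irak3 was not marked, at 0.911-fold to 1.16-fold. Upstream, Msrb3 was marked at 4.85-fold, 3.45-fold, 2.66-fold and 2.64-fold, and Lemd3, an inner nuclear membrane protein that binds Smad proteins, at 2.35-fold, 1.985-fold, 1.30-fold and 1.74-fold. Neither the bin of the Llph TSS nor that of the Msrb3 TSS was a called partner of Hmga2. No pair joined the windows of Hmga1 and Hmga2, which lie on different chromosomes, in any library. With 1674083 to 2888619 pairs between chromosomes per library, a count of 0 allows up to 3 such pairs in each library.

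Other architectural chromatin genes were described as a list of 22, which holds the Hmgb and Hmgn families of high mobility group proteins, CTCF and cohesin genes and others. Of these 14 were marked. In TGFB1 over Control the mark passed the test in 0 genes as higher and 1 as lower, Ldb1 (a bridging factor, -0.58, exact binomial adjusted p = 0.0164), and contacts in 0. Of all promoters tested 6.29% were called higher and 0.347% lower for the mark, and 4.91% and 0.312% for contacts. For TGFB1+miR-9-LOF over TGFB1, 1 gene had a higher mark and 1 a lower mark. Satb1, a chromatin organizer of T cells that was not marked, was higher at 2.01 (47 against 14 pairs), and Yy1, a zinc finger protein that joins promoters and enhancers, was lower at -0.30. Contacts were higher in 1 gene, Satb1, at 0.80, and lower in 0, and relative to all coding promoters those of Satb1 were not called (0.61, exact binomial adjusted p = 0.0692). Over all promoters 19.7% were called higher and 0.907% lower for the mark, and 7.74% and 0.847% for contacts. Relative to all coding promoters the list had 1 higher and 7 lower for the mark, beside 828 and 3394 of all 21048 tested. For contacts it had 0 and 3, beside 234 and 1237 of 21137. With library totals alone it had 1 and 14 for the mark, beside 165 and 7734. For contacts it then had 0 and 7, beside 86 and 3994.

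In miR-9-LOF over Control 2 genes of the list were called higher and 5 lower for the mark, and 8 higher and 4 lower for contacts. Over all promoters 45.9% were called higher and 4.23% lower for the mark, and 41.5% and 4.09% for contacts. The 5 lower in the mark were Ctcf (-0.22), the cohesin genes Rad21 (-0.30) and Smc3 (-0.24), Yy1 (-0.39) and Cbx5, which encodes heterochromatin protein HP1 alpha (-0.30). Contacts were lower at Rad21 (-0.32), Smc3 (-0.27), Yy1 (-0.43) and Cbx5 (-0.43), values between that of Hmga1 and that of Hmga2. Relative to the median marked promoter, contacts were higher at Smc1a (0.38), Stag1 (0.62) and Wapl, which encodes the factor that releases cohesin (0.42). The other 5 with higher contacts were Hmgb3 (0.60), Hmgb4 (1.396), Hmgn2 (0.83), Hmgn3 (0.51) and Satb1 (0.91). Of these 8 genes Smc1a and Wapl were marked. The direction of 3 of them and the call of others rest on the reference. With library totals alone Smc1a was at -0.17 (210 against 240 pairs), Wapl at -0.14 (127 against 142) and Hmgn3 at -0.04. Contacts of 1 gene of the list, Hmgb4, were then called higher and of 11 lower, beside 1046 and 8623 of all 21137 tested. Relative to all coding promoters 2 were called higher, Hmgb4 and Satb1, and 9 lower, beside 2990 and 4947. The 2 higher in the mark, Hmgb4 (1.39) and Satb1 (1.43), were not marked promoters, and neither was called with library totals alone. In that setting 0 genes of the list were called higher in the mark and 17 lower, beside 489 and 9759 of all 21050 tested. The median of the list was 0.03 for the mark and 0.21 for contacts, where the medians over all promoters tested were 0.50 and 0.32. The 14 marked members had medians of -0.16 and -0.11, where the median marked promoter is at 0 by definition. Of these members 5 were called lower in the mark and 4 in contacts, beside 10.6% and 9.28% of the marked promoters.

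A second list held 22 genes of the TGFB1 pathway, of mesenchymal transition and of known regulators or targets of HMGA proteins, of which 16 were marked. In TGFB1 over Control 0 were called for the mark and 1 for contacts, Cdh1 (E-cadherin, not marked, 0.63 higher with 140 against 155 pairs, exact binomial adjusted p = 0.0157), which was not called relative to all coding promoters (0.48, adjusted p = 0.0808). The shares over all promoters are those given for the first list, 6.29% called higher and 0.347% lower for the mark and 4.91% and 0.312% for contacts. Relative to all coding promoters 0 of this list were called higher and 3 lower for the mark, and 0 and 4 for contacts. With library totals alone these were 0 and 15 for the mark, and 0 and 10 for contacts. Relative to all coding promoters 449 of all 21050 tested were called higher and 1573 lower for the mark. For contacts these were 237 and 725 of 21137. With library totals alone they were 167 and 7194 for the mark, and 125 and 3568 for contacts. For TGFB1+miR-9-LOF over TGFB1, called marks were those of Zeb1, a repressor of Cdh1, at -0.57 and Cdh1 at 1.12, and contacts were called in Ccnb2, a cyclin, at 0.67, beside 19.7% of all promoters higher and 0.907% lower for the mark and 7.74% and 0.847% for contacts. With library totals alone neither Cdh1 (0.48) nor Ccnb2 (0.32) was called in these. For the mark 0 genes of the list were then called higher and 13 lower, and for contacts 0 and 12. Relative to all coding promoters 1 was called higher and 9 lower for the mark, and 0 and 6 for contacts. The counts over all promoters under both references are, for this contrast, those given for the first list. In miR-9-LOF over Control the mark was higher in 3 and lower in 4, and contacts higher in 3 and lower in 3, beside the same 45.9% and 4.23% of all promoters for the mark and 41.5% and 4.09% for contacts. The higher ones in the mark, relative to the median marked promoter, were Cdh1 (0.85), Ccnb2 (0.48) and Lin28b, a blocker of let-7 maturation (0.92), and contacts were higher at Cdh1 (0.43), Lin28a (0.91) and Lin28b (1.36). None of these promoters was marked. With library totals alone the mark was at -0.04 for Cdh1 (56 against 57 pairs), -0.41 for Ccnb2 (93 against 122) and 0.02 for Lin28b, none called, and contacts of Cdh1 were at -0.13 (140 against 155, not called). Contacts of Lin28b alone were then called higher, at 0.81, while 18 genes of the list were called lower in the mark and 17 in contacts. Of all 21050 promoters tested for the mark 489 were then called higher and 9759 lower. For contacts these were 1046 and 8623 of 21137. The lower ones in the mark were the inhibitory Smad7 (-0.48), Zeb1 (-0.74), E2f1 (-0.21) and the retinoblastoma gene Rb1 (-0.42). Contacts were lower at Smad7 (-0.48), Zeb1 (-0.53) and Zeb2 (-0.36), and Hmga2 at -0.49 lay among these values. The median of this list was -0.13 for the mark and -0.09 for contacts, against the same 0.50 and 0.32 over all promoters. The 16 marked members had medians of -0.18 and -0.16, against 0 for the median marked promoter, and 4 of them were called lower in the mark and 2 in contacts, beside the same 10.6% and 9.28% of marked promoters.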

How the data were processed

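H3K4me3 HiChIP was measured in 4 libraries of MLg cells. The authors aligned reads to mm10 with HiC-Pro, removed duplicates and assigned ends to MboI fragments. They deposited valid pairs, 1 per line, with position, fragment and the mapping quality score of each end. The deposited score was used only as a filter at 30 in an alternative. Versions are not given in the sources used here.

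Lines were counted with numba 0.67.0 and pandas 2.3.3, tests were made with scipy 1.17.1 and numpy 2.4.6, and plots with matplotlib 3.10.9, in Python 3.11.15. TSS came from GENCODE release M21, and sequences and enhancers from RefSeq GRCm38. Chromosomes 1 to 19 and X were used. Enriched 1-kb bins had a false discovery rate below 0.01 and at least 4-fold more ends than the mean of the chromosome or that of the 100 kb around the bin, whichever was higher. Ratios were tested for all coding promoters with at least 10 pairs by the exact binomial test, and partners by the Poisson test, with Benjamini-Hochberg adjustment over all features. The ratio test and the partner test were tried on simulated data. The calling of enriched bins, the difference of the TGFB1 effects and the comparison by level were not.

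Hmga1, Hmga2, the gene lists and the tests were chosen with earlier results of these data known. Beside both genes, the text names the 5 called partner bins with the highest ratio and at least 10 pairs, the 2 nearest coding genes on each side, called list members and the 5 promoters most alike. For 1 gene of the list of architectural chromatin genes as first written, values are not reported here, and the counts and medians of that list leave it out. The partner bins with the most pairs, the bin with an enhancer and the stretches were added after their values were seen. Alternatives were other windows, distances, references, start sites, bins and filters. Comparison by level, with a quadratic fit of the ratio on the level over marked promoters, was chosen after seeing the data.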

Additional observations from a re-analysis of the deposited data

Results flagged for a closer look

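For contacts of Hmga2 the ratio of TGFB1 to no TGFB1 differed between the libraries with and without the antagomiR, by the interval of the difference itself. The log2 ratio with the antagomiR less that without it, relative to the median of this difference over marked promoters, was 0.45 (95% interval 0.16 to 0.73, by normal approximation). Under each of 10 alternatives it was between 0.35 and 0.65 with an interval outside 0. Of the marked promoters 7.48% had such an interval. Apart from the medians, the difference is the log2 ratio of TGFB1+miR-9-LOF over TGFB1 less that of miR-9-LOF over Control. Relative to the median marked promoter these were -0.05 and -0.49. The difference is therefore not separate from the lower contact ratio in miR-9-LOF over Control. The value rests on 4 single libraries with 698, 357, 336 and 333 pairs, and the Control library, with the highest share of ends in enriched bins, enters it. The part of that share in the difference was not tested.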

How the results depend on the processing

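Of 178 values computed for 22 results under the alternatives, 125 kept their direction and their side of the threshold, or their size. No paired analysis was possible because each condition had 1 library, and for the same reason none was left out.

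The reference set most calls. Relative to the median of all coding promoters, the mark in TGFB1 over Control was -0.12 for Hmga1 and -0.37 for Hmga2 (called), in TGFB1+miR-9-LOF over TGFB1 -0.45 and -0.38 (both called) and in miR-9-LOF over Control -0.58 for Hmga1 (called). Contacts were -0.34 for Hmga2 in the first contrast and -0.31 for Hmga1 in the second (both called). The difference of the TGFB1 effects in the mark was 0.067 for Hmga1 and 0.28 for Hmga2. With library totals alone the mark was -0.39 and -0.64, then -0.76 and -0.69, and -0.98 for Hmga1 in miR-9-LOF over Control, and contacts were -0.34 and -0.49, then -0.47 and -0.40, all called. The differences of the TGFB1 effects were then 0.22 for the mark of Hmga1, 0.44 for that of Hmga2 and 0.35 for contacts of Hmga1. Over all promoters, calls in miR-9-LOF over Control were 91.6% higher for the mark and 91.0% for contacts, but 30.2% and 37.7% relative to all coding promoters and 4.77% and 10.8% with library totals. In TGFB1 over Control 94.8% and 94.0% became 22.2% and 24.6%, or 2.27% and 3.38%, and in TGFB1+miR-9-LOF over TGFB1 95.6% and 90.1% became 19.6% and 15.9%, or 2.09% and 2.11%. Called promoters in TGFB1 over Control, 1396 for the mark and 1104 for contacts, became 7361 and 3693 with library totals.

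Compared at the same level, the mark was 0.049 for Hmga2 in TGFB1+miR-9-LOF over TGFB1 and -0.14 in miR-9-LOF over Control (not called). Contacts were 0.028 for Hmga1 in TGFB1 over Control, and 0.038 for Hmga1 and 0.068 for Hmga2 in TGFB1+miR-9-LOF over TGFB1. In miR-9-LOF over Control they were -0.10 for Hmga1 (not called) and -0.36 for Hmga2 (called). Called promoters then numbered 639, 610 and 5108 for the mark against 1396, 4335 and 10556, and 556, 429 and 5424 for contacts against 1104, 1814 and 9642.

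With a window of 1 kb the mark of Hmga2 was 0.015 in miR-9-LOF over Control, and the difference of its TGFB1 effects was -0.14. With 5 kb the mark in TGFB1 over Control was -0.019 for Hmga1 and -0.26 for Hmga2, and the differences were 0.044 and 0.26. With a contact window of 5 kb, contacts in TGFB1+miR-9-LOF over TGFB1 were 0.02 and 0.076 for Hmga1 and Hmga2, and miR-9-LOF over Control -0.15 for Hmga1. With mapping quality held to 30 or more, the mark of Hmga2 in miR-9-LOF over Control was -0.18, and with each pair of fragments once its value in TGFB1+miR-9-LOF over TGFB1 was 0.0068. The cause of these changes was not tested.

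Mean levels over the 4 libraries, 4.60 and 6.66 for the mark and 3.73 and 3.02 for contacts of Hmga1 and Hmga2, became 1.594, 2.285, 2.465 and 1.992 relative to the median marked promoter, and for Hmga2 7 and 3.21 at a mapping quality of at least 30. Called partners of Hmga1 and Hmga2 numbered 2 and 3 in Control alone, 0 and 1 with TGFB1, 0 and 0 with both agents and 0 and 1 with the antagomiR alone, where fewer pairs enter, and 17 for Hmga1 with expected pairs from distance alone.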

Other observations

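The surroundings of the 2 genes differed in their overall level of pair ends. Outside enriched bins, the region within 2 Mb of Hmga1 held 2.02 to 2.36 times the ends per kb of the genome over the 4 libraries, and 1.25 to 1.29 times those of its own chromosome. For Hmga2 these ratios were 1.34 to 1.38 and 1.21 to 1.23.

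The marked promoters most like each gene were those with the smallest summed squared difference of log2 level, relative to the median marked promoter, over mark and contacts in the 4 libraries (8 values). For Hmga1 they were Ubtf, Sac3d1, Fosl2, Gabarap and Wdr81, with sums of 0.0348 to 0.0823. For Hmga2 they were Map4k3, Rab3ip, Tgfbrap1, AI597479 and Ttc19, with sums of 0.0412 to 0.0864. Rab3ip lies 3526 kb from Hmga2 on the same chromosome. Hmga2 ranked 614 in likeness to Hmga1, and Hmga1 ranked 1107 in likeness to Hmga2, with a sum of 1.52.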
